A study of Mus musculus with 22 samples.

Results

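The genes described here encode the proteoglycans, link proteins and tenascins that assemble around neurons. There were 10: the lecticans Acan, Bcan, Ncan and Vcan, the link proteins Hapln1, Hapln2 and Hapln4, the tenascins Tnr and Tnc, and the membrane proteoglycan Cspg5. They were picked by gene symbol, by a rule that uses no measured value, out of 55385 genes in the deposited tables. The set itself was chosen with earlier results of these data known. All 10 passed the filter on low counts that left 20524 genes for testing.

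Translating mRNA was isolated by RiboTag, in which Cre recombinase switches on an HA-tagged copy of the ribosomal protein Rpl22 in a chosen cell population and the tagged ribosomes are pulled down with their mRNA. All mice were 6 weeks old, carried Rpl22 Fl/+ and a Cre allele, and included both sexes. Dentate gyrus granule cells were taken from hippocampus and Layer V neurons from cortex, both with Rbp4-Cre. Cerebellar granule cells were taken with Gabra6-Cre from cerebellum, and inhibitory interneurons with Dlx6a-Cre from hippocampus, where 2 mice were pooled for each replicate. Astrocytes (Aldh1-cre in the labels, Aldh1l1-CreERT2 in the methods) and microglia (Tmem119-cre, also a CreERT2 line) were taken from cortex, and mice of these inducible lines received tamoxifen by gavage. Each of the 6 cell types had 3 biological replicates, with no library of input RNA or of Cre-negative tissue used here. The cell types therefore differ in brain region and driver as well as in identity.

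The brain's matrix is built on hyaluronan, a long sugar polymer spun out at the cell surface. Lecticans bind hyaluronan at their N-terminal end, link proteins fasten that contact, and tenascins bridge the C-terminal ends of neighbouring lecticans. Around some neurons, above all parvalbumin-positive interneurons, these parts condense into perineuronal nets, while elsewhere they form a looser matrix around synapses and nodes of Ranvier.

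The 18 libraries used held 38270477 to 71440915 estimated counts each. Of 21 genes fixed as markers of the 6 populations, 19 were higher in every library of their own cell type than in any other library. The exceptions were Bcl11b and Etv1, listed for Layer V neurons, with Bcl11b at 34.3 TPM there against 159.5 in dentate granule cells and Etv1 at 82.5 against 728 in cerebellar granule cells. Transcripts of other cells were also present. The 6 oligodendrocyte markers summed to 2855 to 3059 TPM in interneuron libraries, 993 to 1212 in astrocytes, 551 to 644 in microglia and 122 to 414 in the excitatory neurons. In bulk pulldown libraries such as these, fewer cells of a type and less RNA per cell cannot be told apart. A library of Layer V replicate 1 from the second sequencing batch is labelled male where the first is labelled female, yet it read Xist at 2.125 TPM and Y-linked genes at 0.485, as the female libraries did. It entered only the alternatives.

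Bcan, Ncan, Hapln1 and Tnc are shown with the 250 bases before their RefSeq start (GRCm38.p6), because these 4 genes carried large differences between astrocytes and neurons. Capitals mark TTGGC, the core recognised by nuclear factor I, and ACAAT, a SOX core, in either orientation. The windows lie at chr3:88000357-88000606 (minus strand) for Bcan, chr8:70120845-70121094 (minus) for Ncan, chr13:89540386-89540635 (plus) for Hapln1 and chr4:64047016-64047265 (minus) for the upstream Tnc start.
Bcan: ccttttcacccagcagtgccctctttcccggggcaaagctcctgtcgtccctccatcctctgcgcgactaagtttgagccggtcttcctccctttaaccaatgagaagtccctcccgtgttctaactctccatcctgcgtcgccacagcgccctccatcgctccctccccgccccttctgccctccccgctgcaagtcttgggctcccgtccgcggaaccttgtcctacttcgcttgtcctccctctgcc
Ncan: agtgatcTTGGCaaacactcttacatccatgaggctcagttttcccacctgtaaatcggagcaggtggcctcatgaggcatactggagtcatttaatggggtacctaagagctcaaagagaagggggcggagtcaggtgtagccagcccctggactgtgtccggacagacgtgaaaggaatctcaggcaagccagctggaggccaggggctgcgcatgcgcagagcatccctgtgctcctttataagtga
Hapln1: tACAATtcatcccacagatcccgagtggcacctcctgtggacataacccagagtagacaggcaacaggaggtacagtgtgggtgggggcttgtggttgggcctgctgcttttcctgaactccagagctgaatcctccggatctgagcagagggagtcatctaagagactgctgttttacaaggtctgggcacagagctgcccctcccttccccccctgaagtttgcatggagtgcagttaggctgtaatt
Tnc: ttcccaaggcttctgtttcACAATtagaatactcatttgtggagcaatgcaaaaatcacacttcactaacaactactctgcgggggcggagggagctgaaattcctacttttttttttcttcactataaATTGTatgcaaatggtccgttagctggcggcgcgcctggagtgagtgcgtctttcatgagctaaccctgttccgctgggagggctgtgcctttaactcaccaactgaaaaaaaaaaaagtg
The Bcan window held neither core, that of Ncan held 1 TTGGC, that of Hapln1 held 1 ACAAT and that of Tnc held 2. The GENCODE M21 annotation, used below for coordinates, starts Hapln1 at 89539796, so its window lies inside the gene as annotated there. By the same annotation the Ncan window overlaps the start of its gene, at 70120873. Over the 8 members in the table, 4 had TTGGC and 3 had ACAAT in at least 1 window. Over all 32851 promoters of this length, 41.51% held TTGGC and 27.66% held ACAAT. The E-box CAGCTG occurred in 3 of the 8 members and in 13% of all promoters, and the GC box GGGCGG in 5 of the 8 and in 32.74%. Hapln4 and Cspg5 were the other two members.

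Bcan encodes brevican, an abundant lectican of the adult brain. It stood at 1275, 1159 and 1233 TPM (a level corrected for transcript length and library size) in the 3 astrocyte libraries, a mean of 1222 ± 59.0 (SD, n = 3). No other library of any cell type came above 58.5 TPM. Microglia followed at 58.0 ± 0.47 and interneurons at 52.3 ± 3.04, and their libraries did not overlap. Dentate granule cells held 34.7, 10.9 and 28.2 TPM, so that replicate 2 lay with the Layer V libraries, which were at 11.0, 10.5 and 10.03. Cerebellar granule cells were lowest, at 5.29, 2.52 and 3.52. Bcan was higher in astrocytes than in Layer V neurons by a log2 fold change of 7.34 (SE 0.33, adjusted p = 4.8e-13 by edgeR's quasi-likelihood test), or 162-fold.

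Dentate replicate 2 was also the lowest of its group for Acan (0.93 TPM), Vcan (0.54), Hapln1 (0.44), Hapln2 (1.47) and Tnc (0.13). It was not the lowest for Ncan (57.9), Hapln4 (10.9), Tnr (48.4) or Cspg5 (85.3). Its 4 astrocyte markers summed to 16.6 TPM against 22.4 and 30.5 in the other two replicates, and its 4 endothelial markers to 15.2 against 33.1 and 22.3. The part of these cells in the low values was not tested.

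Ncan encodes neurocan, a lectican that is most abundant in the developing brain. Its libraries read 333, 313 and 346 TPM in astrocytes, 54.2, 57.9 and 50.3 in dentate granule cells and 35.04, 31.5 and 34.4 in Layer V neurons. Interneurons came next at 21.8 ± 0.57, then microglia at 9.40 ± 0.95 and cerebellar granule cells at 6.50 ± 0.13. No neighbouring cell types overlapped in this order, which also held for Tnr and Cspg5. Unlike Bcan, Ncan was therefore higher in dentate and Layer V neurons than in interneurons or microglia. The difference between interneurons and dentate granule cells was -1.37 on the log2 scale (SE 0.08, adjusted p = 5.6e-11).

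Acan encodes aggrecan, the lectican that marks most perineuronal nets. By mean level it was the lowest lectican in every cell type but interneurons, where it read 2.13, 2.11 and 2.17 TPM. Dentate granule cells held 1.02, 0.93 and 1.07 TPM. All other libraries lay at or below 0.387 TPM, with astrocytes and microglia overlapping and microglia and Layer V neurons overlapping. In cerebellar granule cells the gene rested on 1, 2 and 2 estimated counts. Acan was higher in interneurons than in the mean of the 3 excitatory neuron types by 3.99 (SE 0.15, adjusted p = 8.4e-14), a mean that includes those few cerebellar counts. Against dentate granule cells alone the difference was 0.89 (SE 0.16, adjusted p = 8.9e-05), short of the 2-fold that a call required.

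The interneuron libraries read 1118 to 1183 TPM over the 3 parvalbumin interneuron markers. Pvalb itself, the calcium-binding protein of many net-bearing cells, stood at 610 ± 32.5 TPM there, at 40.5 in Layer V neurons and at 10.5 in cerebellar granule cells. The marker sum does not separate these types, since it reached 1165 to 1190 TPM in cerebellar granule cells.

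Vcan encodes versican, a lectican of oligodendrocyte precursors and early axon tracts. Astrocytes held 3.03, 3.94 and 3.86 TPM and interneurons 1.59, 2.10 and 2.46. The other 4 cell types overlapped each other from neighbour to neighbour, with means of 1.26 in microglia, 1.17 in dentate granule cells, 0.349 in cerebellar granule cells and 0.328 in Layer V neurons. Interneurons overlapped microglia too, with 1 microglia library at 1.5913 TPM and the lowest interneuron library at 1.5904. The 6 markers of oligodendrocyte precursors summed to 190 to 217 TPM in astrocytes, 120 to 135 in interneurons, 31.7 to 32.2 in microglia and at most 11.5 in the excitatory neurons. Olig1 made most of the astrocyte sum, at 157 ± 12.0 TPM. Pdgfra, a more specific marker of these cells, was at 5.15 in interneurons, 4.83 in microglia and 4.08 in astrocytes. The part of these cells in the Vcan values was not tested.

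**Figure D1:**
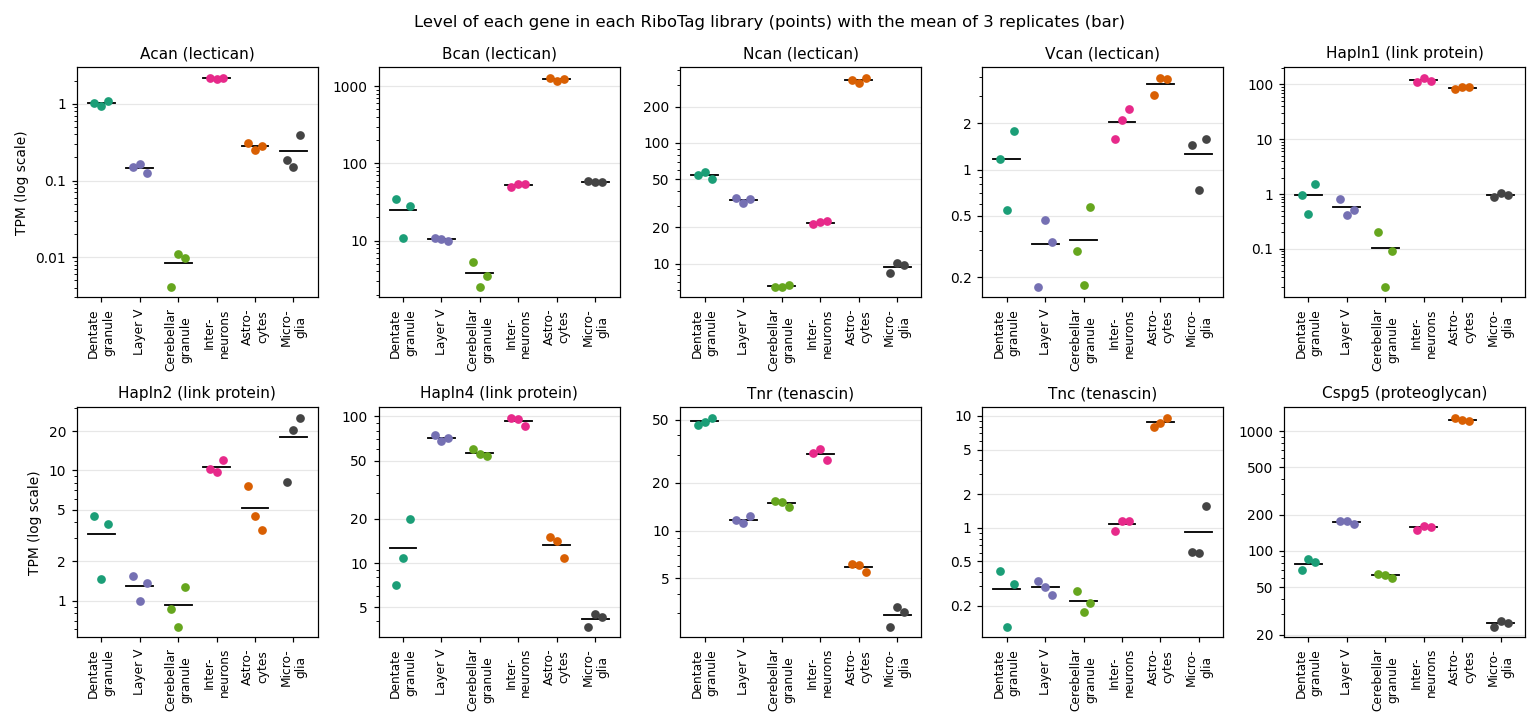
Level of each of the 10 genes in TPM on a log axis, with a panel per gene and a column per cell type, where points are the 3 replicate libraries and the bar is their mean. Astrocytes sit highest for Bcan, Ncan, Vcan, Tnc and Cspg5, interneurons for Acan, Hapln1 and Hapln4, dentate granule cells for Tnr and microglia for Hapln2.

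Hapln1, the link protein first known from cartilage, had the widest range of the 10 genes. Interneurons held 111, 131 and 115 TPM (119 ± 10.8) and astrocytes 82.6, 90.4 and 88.2 (87.1 ± 4.05). The remaining 12 libraries lay at or below 1.53 TPM, so these 2 cell types stood apart from the rest. From interneurons to cerebellar granule cells, the lowest at 0.106 ± 0.094, the ratio of means was 1128. The cerebellar libraries held 12, 2 and 10 estimated counts, so this ratio rests on a level near 0. Hapln1 was higher in interneurons than in dentate granule cells by 7.20 on the log2 scale (SE 0.20, adjusted p = 2.5e-15). It was higher in astrocytes than in Layer V neurons by 6.23 (SE 0.19, adjusted p = 1.9e-15).

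Hapln4, a link protein found with brevican around synapses, was also highest in interneurons but was low in astrocytes. It was at 97.9, 95.7 and 86.4 TPM in interneurons, 74.9, 68.5 and 71.6 in Layer V neurons and 59.9, 55.1 and 53.4 in cerebellar granule cells. Astrocytes held 13.3 ± 2.24, dentate granule cells 12.7 ± 6.64 and microglia 4.15 ± 0.44. The dentate libraries spread from 7.08 to 20.0 and overlapped the astrocytes. Hapln4 was lower in astrocytes than in Layer V neurons, with a log2 fold change of -2.36 (SE 0.21, adjusted p = 8.1e-09). It was higher in interneurons than in dentate granule cells by 2.81 (SE 0.21, adjusted p = 1.9e-09).

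Hapln2, a link protein of the nodes of Ranvier made by oligodendrocytes, was highest by summed TPM in microglia, where the libraries read 8.19, 20.2 and 25.3. Interneurons held 10.2, 9.67 and 11.9 and overlapped microglia, and astrocytes held 7.52, 4.47 and 3.47. The excitatory neurons held 0.628 to 4.44 TPM. Most of this signal did not come from the transcript that encodes the protein. The coding transcript made 1.11% of Hapln2 TPM in microglia, 14.5% in astrocytes and 40.1% in interneurons. By that transcript alone interneurons held 4.52, 3.64 and 4.56 TPM, all astrocyte libraries 0.52 to 0.98 and all microglia libraries at most 0.202. The oligodendrocyte markers given above were also highest in the interneuron libraries, and their part in the Hapln2 values was not tested.

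The call on Hapln2 between astrocytes and microglia thus turned with the transcripts counted. Over all transcripts it was lower in astrocytes by a log2 fold change of -1.72 (SE 0.36, adjusted p = 0.00033). Over protein-coding transcripts alone, a setting added once the values had been seen, it was higher by 1.99 (SE 0.58, adjusted p = 0.005).

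Tnr encodes tenascin-R, the tenascin of perineuronal nets. It was highest in dentate granule cells at 46.4, 48.4 and 51.4 TPM and then in interneurons at 30.9, 32.6 and 27.8. Cerebellar granule cells followed at 14.9 ± 0.64, Layer V neurons at 11.7 ± 0.62, astrocytes at 5.88 ± 0.38 and microglia at 2.94 ± 0.43. Every neuronal library was therefore above every glial library. Tnr was lower in astrocytes than in the mean of the 4 neuron types by a log2 fold change of -1.69 (SE 0.08, adjusted p = 4e-13), and it was higher in dentate than in cerebellar granule cells by 1.70 (SE 0.09, adjusted p = 4.3e-12).

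Tnc encodes tenascin-C, a tenascin of developing and reactive tissue. It read 7.97, 8.69 and 9.62 TPM in astrocytes and no more than 1.56 TPM in any other library. Interneurons held 1.08 ± 0.12 and microglia 0.917 ± 0.556, and they overlapped. The excitatory neurons lay between 0.130 and 0.414 TPM, without separation. Tnc was higher in astrocytes than in Layer V neurons by 5.02 on the log2 scale (SE 0.35, adjusted p = 3e-10).

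Cspg5, or neuroglycan C, is a chondroitin sulfate proteoglycan that spans the membrane. It stood at 1294, 1231 and 1207 TPM in astrocytes, at 178, 177 and 169 in Layer V neurons and at 150.3, 163 and 159 in interneurons. Dentate granule cells held 78.2 ± 8.55, cerebellar granule cells 62.5 ± 2.52 and microglia 24.8 ± 1.47. In astrocytes its level was close to that of Bcan, while in every neuronal library it was above Bcan. Cspg5 was higher in astrocytes than in Layer V neurons by 2.73 (SE 0.06, adjusted p = 1.6e-17) and than in microglia by 5.06 (SE 0.06, adjusted p = 6.2e-20).

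The mix within each family differed between cell types. The 4 lecticans summed to 1557 ± 71.2 TPM in astrocytes, 80.9 ± 10.4 in dentate granule cells, 78.3 ± 4.02 in interneurons, 68.9 ± 0.44 in microglia, 44.6 ± 1.87 in Layer V neurons and 10.6 ± 1.47 in cerebellar granule cells. Ncan made 67.9%, 75.4% and 61.9% of that sum in dentate granule cells, Layer V neurons and cerebellar granule cells. Bcan made 66.8% in interneurons, 78.5% in astrocytes and 84.2% in microglia. By summed TPM neurocan thus led in the excitatory neurons and brevican in the other cell types. Over protein-coding transcripts Bcan no longer led in interneurons, where it read 18.3, 22.1 and 21.8 TPM against 21.2, 21.9 and 22.4 for Ncan, and the libraries overlapped.

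Among link proteins, Hapln4 made 73.5% of the sum in dentate granule cells, 97.5% in Layer V neurons and 98.2% in cerebellar granule cells. Hapln1 made 82.5% in astrocytes, and interneurons divided theirs between Hapln1 (53.4%) and Hapln4 (41.9%). Over protein-coding transcripts that order turned in interneurons, to 88.2 ± 5.48 TPM of Hapln4 and 78.9 ± 8.62 of Hapln1. The link protein sum was 223 ± 12.1 TPM in interneurons, above the 106 ± 3.31 of astrocytes and the 73.6 ± 3.68 of Layer V neurons. Tnr made 96.6% to 99.4% of tenascin TPM in the 4 neuron types and 40.2% in astrocytes, where Tnc made 59.8%. All 10 genes together reached 2921 ± 97.3 TPM in astrocytes, of which Bcan (41.8%) and Cspg5 (42.6%) were the bulk, and 490.1 ± 20.2 in interneurons.

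**Figure D2:**
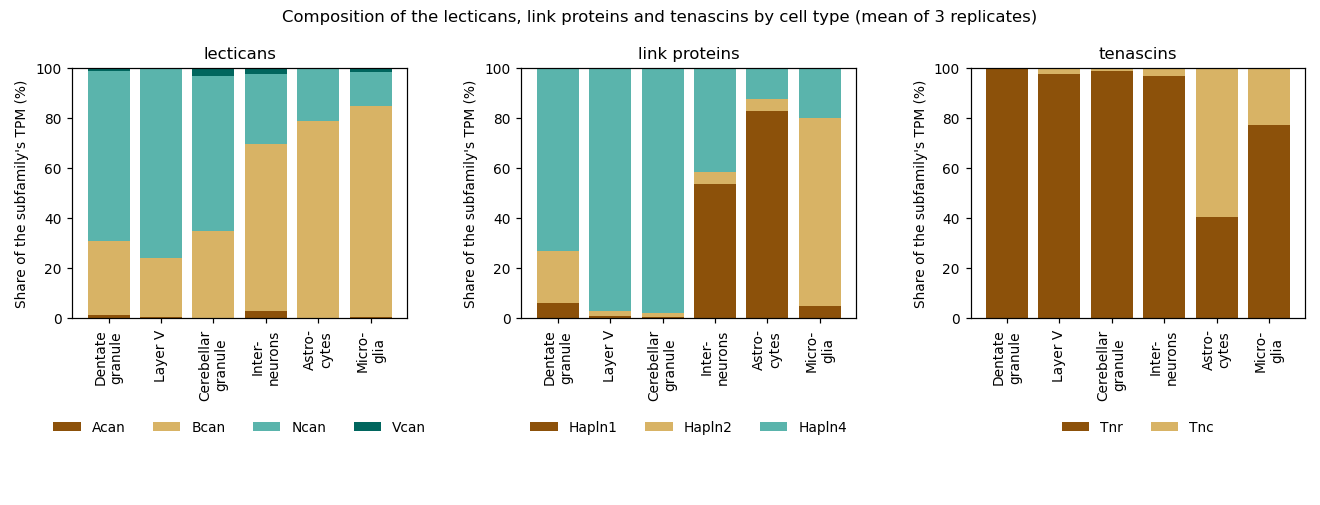
Share of each gene in the summed TPM of its family (percent, mean of 3 replicates), with a panel each for lecticans, link proteins and tenascins and a bar per cell type. Ncan is the largest lectican share in the 3 excitatory neuron types (61.9% to 75.4%) and Bcan in the others (66.8% to 84.2%) over all transcripts, though over coding transcripts Bcan (20.8 TPM) is not above Ncan (21.8 TPM) in interneurons, and Tnc exceeds Tnr only in astrocytes, at 59.8%.

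Levels outside astrocytes were set beside those of astrocyte markers in the same libraries. The 4 astrocyte markers summed to 3797 to 4008 TPM in astrocytes, 109 to 135 in microglia, 38.2 to 39.1 in Layer V neurons, 22.3 to 29.8 in interneurons, 16.6 to 30.5 in dentate granule cells and 15.01 to 16.6 in cerebellar granule cells. Microglia thus held 3.08% of the astrocyte marker level, and in them Bcan was at 4.75%, Ncan at 2.84%, Cspg5 at 2.00% and Hapln1 at 1.10% of the astrocyte mean. Layer V neurons held 0.986% of the marker level, most of it from Aldh1l1 (7.92% of its astrocyte level), and 0.309% without that gene. There Bcan was at 0.858%, Ncan at 10.2% and Cspg5 at 14.1%. In cerebellar granule cells the markers were at 0.402% and Bcan at 0.309%.

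In Layer V neurons Bcan thus lay above Aqp4 (0.317%), Gja1 (0.342%) and Slc1a3 (0.291%) and below Aldh1l1. In cerebellar granule cells it lay within the 0.200% to 0.836% of the 4 markers, and in microglia above their 1.58% to 3.94%. These Bcan percents take all transcripts. Over coding transcripts Bcan was at 1092 TPM in astrocytes, 37.2 in microglia and 1.74 in cerebellar granule cells. Set against the same marker percents, it then fell within their range in microglia and below it in cerebellar granule cells. The part of astrocyte RNA in these levels was not tested. In interneurons the astrocyte markers were at 0.674%, with Bcan at 4.28%, Tnc at 12.3% and Cspg5 at 12.6%, again over all transcripts. In dentate granule cells they were at 0.591%, with Bcan at 2.02%, Cspg5 at 6.29% and Ncan at 16.4%. Over coding transcripts Bcan was at 20.8 TPM in interneurons and 12.9 in dentate granule cells, lower percents of the astrocyte level in both. Markers of oligodendrocyte precursors were at 61.7% of their astrocyte level in interneurons and 4.69% in dentate granule cells. Those of oligodendrocytes were at 264% and 30.6%. The part of oligodendrocytes and their precursors in these levels was not tested.

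**Figure D3:**
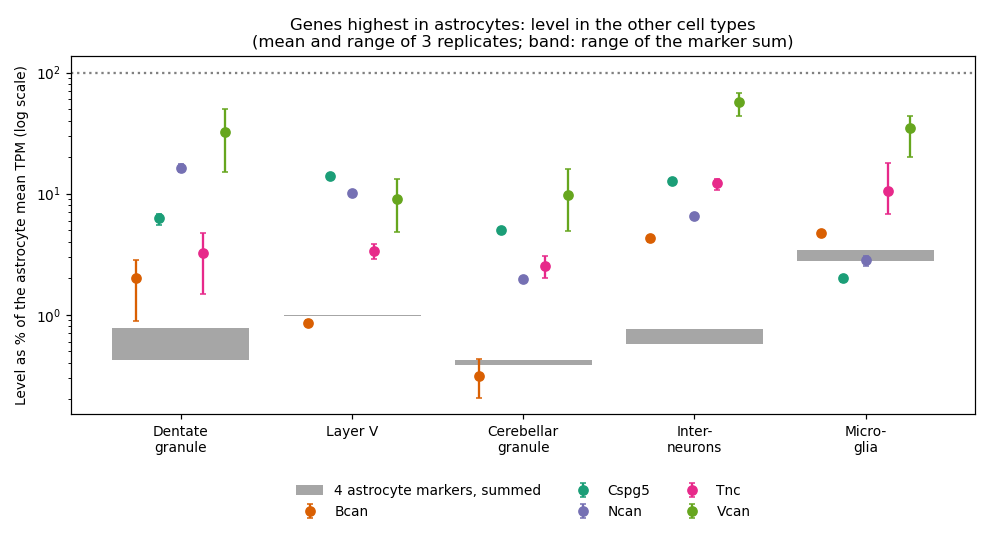
Level of 5 genes that were highest in astrocytes, and the summed astrocyte markers, in the other 5 cell types as a percent of the astrocyte mean TPM (log axis, the dotted line at 100%). Over all transcripts Bcan lies near the marker sum in Layer V and cerebellar granule cells (0.858% against 0.986%, and 0.309% against 0.402%). The Layer V sum is 0.309% without Aldh1l1, and over coding transcripts Bcan lies lower in both cell types. Ncan and Cspg5 lie above the marker sum in every neuron type.

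The 7 comparisons drawn from 1 fit of the 6 cell types answered how these genes differ between astrocytes and neurons, between glia, and among neurons. They share groups, so their results are not independent of each other. A gene was called at an adjusted p of at most 0.05 with at least a 2-fold change. Against Layer V neurons, also from cortex, astrocytes were higher for 7 of the 10 (Bcan, Hapln1, Tnc, Vcan, Ncan, Cspg5 and Hapln2) and lower for 1 (Hapln4). Of all genes tested, 26.3% were called higher and 21.3% lower. The median log2 fold change of the 10 was 3.06 against 0.022 over all genes. Tnr, at -0.95 (SE 0.09, adjusted p = 1.3e-08), missed the 2-fold limit, and without Layer V replicate 2 or astrocyte replicate 2 it passed it, with a lowest value of -1.02. Acan was at 0.82 (SE 0.20, adjusted p = 0.001), and without Layer V replicate 2 it was called, at 1.04.

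Against microglia, astrocytes were higher for 8 genes (23.1% of all genes) and lower for 1, Hapln2 (21.1%). The member median was 2.72 against 0.044. The largest was Hapln1 at 6.26 (SE 0.18, adjusted p = 1.6e-15). Tnr, at 1.08 (SE 0.09, adjusted p = 3.1e-09), came to 0.91 without microglia replicate 1 and to 0.98 over protein-coding transcripts, neither of them called. Against the mean of the 4 neuron types, astrocytes were higher for 7 genes (28.3% of all genes) and lower for 2, Hapln4 and Tnr (13.7%), with a median of 3.26 against 0.14. Hapln2, at 1.30 (SE 0.28, adjusted p = 0.00041), went to 0.89 without astrocyte replicate 1 and lost its call. Acan had no settled direction there, at 0.16 (SE 0.15, adjusted p = 0.42).

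Interneurons were higher than dentate granule cells, both from hippocampus, for 6 genes (15.1% of all genes): Hapln1, Hapln4, Tnc, Vcan, Hapln2 and Bcan. They were lower for 1, Ncan (13.1%), and the median was 1.42 against -0.039. Tnc was higher by 1.75 (SE 0.36, adjusted p = 0.00033) and Vcan by 1.62 (SE 0.19, adjusted p = 6.9e-07). Bcan, at 1.31 (SE 0.26, adjusted p = 0.00023), stood at the edge of its call: it was 0.99 without dentate replicate 2 and 0.74 over protein-coding transcripts, neither of them 2-fold. Against the mean of the 3 excitatory types, interneurons were higher for 7 genes (18% of all genes) and lower for 0 (6.64%), with a median of 2.13 against 0.076. Hapln1 led at 8.06 (SE 0.13, adjusted p = 2.6e-18), and Ncan, Tnr and Cspg5 were not called. The excitatory mean for Hapln1 includes the few cerebellar counts given above. Ncan, at -0.22 (SE 0.07, adjusted p = 0.0078), was the 1 gene lower with no minimum fold, and DESeq2 also called 0 lower.

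Layer V neurons and dentate granule cells share the Rbp4-Cre driver. Layer V was higher for 2 genes (13.2% of all genes), Hapln4 at 2.74 (SE 0.21, adjusted p = 3.5e-09) and Cspg5 at 1.42 (SE 0.05, adjusted p = 4e-13). It was lower for 4 (13.2%), with a median of -0.62 against -0.046. These were Acan at -2.77 (SE 0.19, adjusted p = 5.7e-10), Tnr at -1.81 (SE 0.09, adjusted p = 6.6e-12), Vcan and Hapln2. Without dentate replicate 3 the count lower was 2, since Vcan came to -0.94 and Hapln2 to -0.99. Without dentate replicate 2, Bcan, otherwise at -0.77 (SE 0.26, adjusted p = 0.017), reached -1.12 and was called. It was also called over protein-coding transcripts, at -1.20 (SE 0.29, adjusted p = 0.0013). In the second batch alone it came to -1.05, and in the first alone to -0.74. Hapln2, at -1.14 (SE 0.42, adjusted p = 0.024), also lost its call without dentate replicate 1 (-0.80) and without any of Layer V replicates 1 (-1.07), 2 (-1.18) or 3 (-1.18). Over protein-coding transcripts its sign turned, to 1.13 (SE 0.82, adjusted p = 0.23).

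Between the granule cells, dentate was higher for 7 genes (28.3%) and lower for 1, Hapln4 at -2.24 (SE 0.21, adjusted p = 2.3e-08; 13.8%), and the median was 1.75 against 0.178. Acan showed the largest value, 6.54 (SE 0.28, adjusted p = 4.8e-13), which rests on the few cerebellar counts given above. Ncan was higher by 2.99 (SE 0.09, adjusted p = 1.3e-15), Hapln1 by 2.84 (SE 0.38, adjusted p = 3e-06) and Bcan by 2.57 (SE 0.30, adjusted p = 4e-07). The Hapln1 value rests on few cerebellar counts too, and came to 4.16 in the second batch alone. Hapln2, called at 1.80 (SE 0.45, adjusted p = 0.0015), was not called over protein-coding transcripts (1.98, SE 1.26, adjusted p = 0.16). Of the 70 comparisons of a member, 54 were called, where 36.5% of all gene comparisons were.

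**Figure D4:**
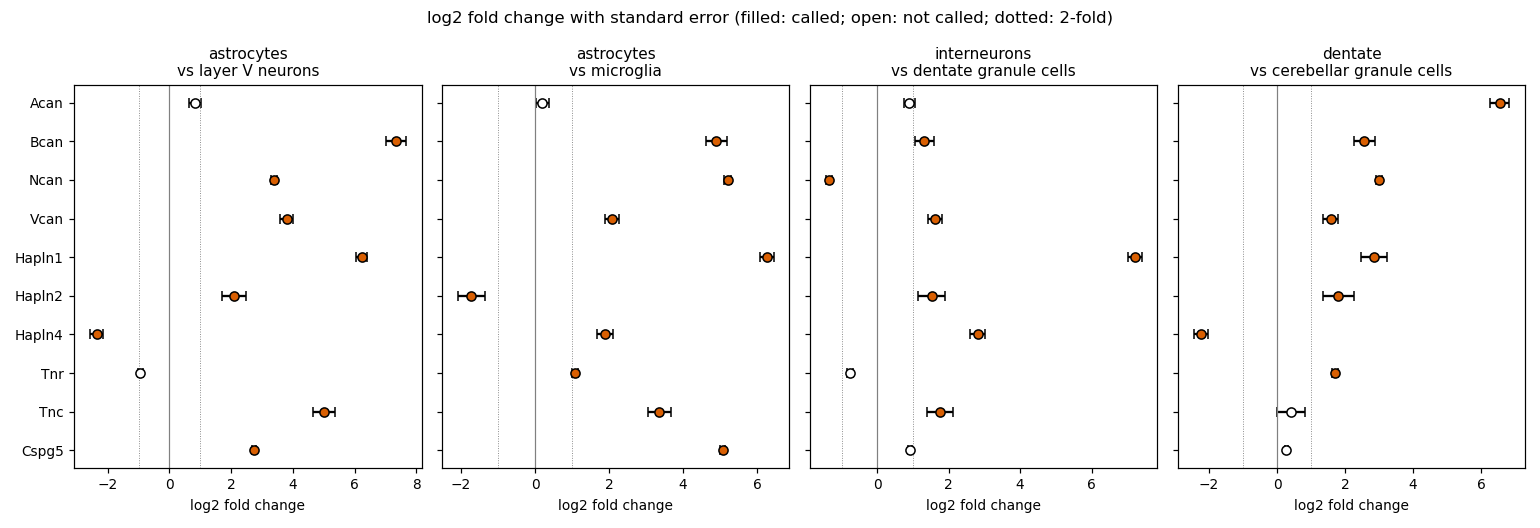
log2 fold change of each of the 10 genes with its standard error in 4 of the comparisons, where filled points were called, open points were not and dotted lines mark 2-fold. Bcan at 7.34 is the largest value between astrocytes and Layer V neurons, Hapln1 at 7.20 between interneurons and dentate granule cells, and Hapln4 lies left of 0 in the first and last panels.

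Interneurons and microglia were sequenced only in the second batch, and the other 4 cell types entered from the first, so comparisons of those 2 types with the rest cross batches. Within the second batch alone, where the other 4 types have 1 library each that is assumed to vary like the rest, the 9 genes called between astrocytes and microglia were called in the same direction. Interneurons stayed above dentate granule cells for Hapln1 at 7.06 (SE 0.27, adjusted p = 5.7e-08). Bcan came to 0.98 (SE 0.07, adjusted p = 3.2e-06) and Hapln2 to 1.16 (SE 0.43, adjusted p = 0.05), and neither was called. Hapln4 against the excitatory types, 1.15 (SE 0.15, adjusted p = 2.7e-06) across batches, was 0.91 within batch 2 and 0.95 with batch as a term, both short of 2-fold. The fit with batch as a term took all 22 libraries, so the 4 replicates sequenced in both batches entered it as separate libraries. Its standard error and p-value treat those as independent and are not given.

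Transcripts within a gene were apportioned by kallisto, whose model divides reads shared by overlapping transcripts. Ncan had a single transcript. The coding Bcan-201 made 89.1% of Bcan TPM in astrocytes, 58.4% in microglia and 36.4% to 42.2% in neurons. Of the estimated counts it made 94.8% in astrocytes, 83.7% in microglia and 48.5% to 68.6% in neurons. The retained-intron transcript Bcan-203, of 2431 bases, made 40.8% in interneurons (39.2% to 42.3%) and 27.6% in Layer V neurons, but 0.213% in astrocytes and 0 in microglia. By coding transcripts alone, Bcan was 1092 ± 42.5 TPM in astrocytes, 37.2 ± 1.45 in microglia, 20.8 ± 2.13 in interneurons and 4.33 ± 0.40 in Layer V neurons. The gap between astrocytes and Layer V neurons then widened to 8.12 (SE 0.35, adjusted p = 5.3e-13).

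For Hapln1, the short retained-intron transcript Hapln1-202, of 464 bases, took 60.3% of TPM in astrocytes but 8.61% of estimated counts. The coding transcript of Hapln1 was at 78.9 ± 8.62 TPM in interneurons and 34.6 ± 2.59 in astrocytes, a wider difference between these cell types than the summed TPM gave. For Cspg5, transcript Cspg5-204 made 18% of TPM in microglia and at most 1.97% elsewhere.

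**Figure D5:**
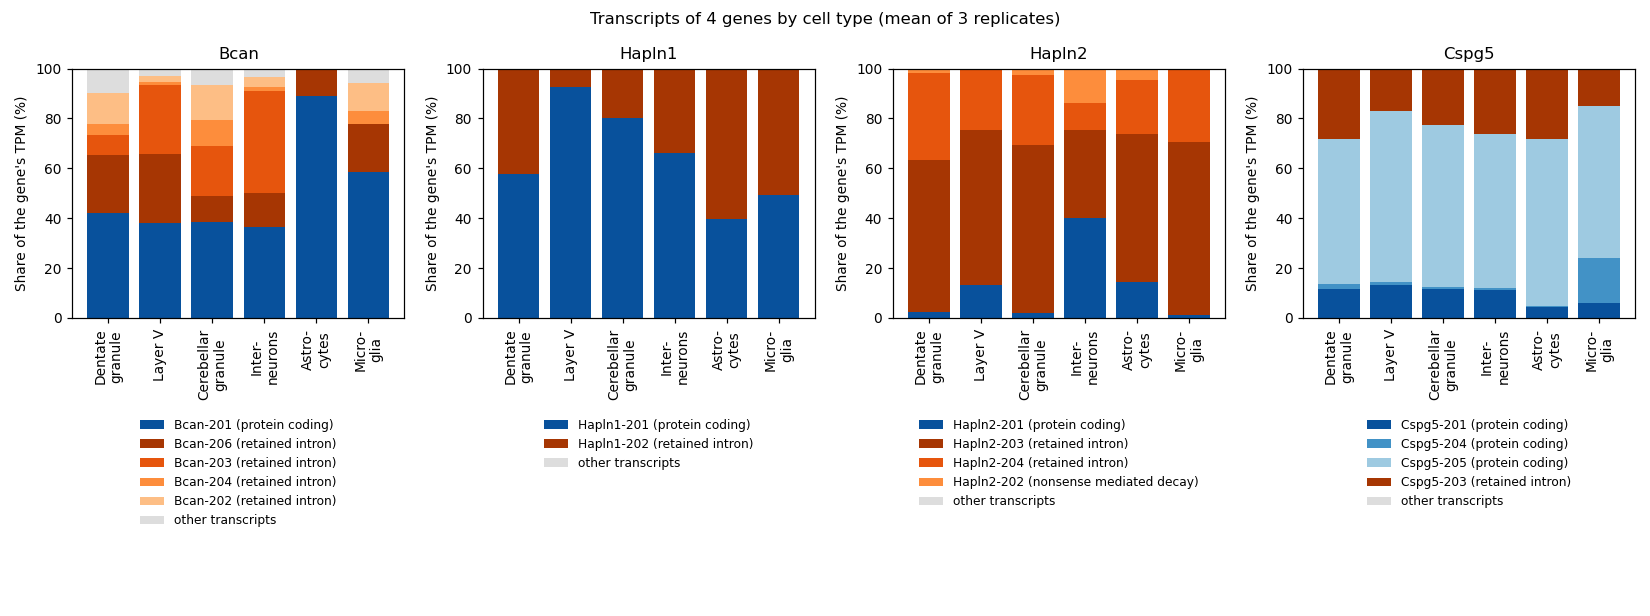
Share of annotated transcripts in the TPM of Bcan, Hapln1, Hapln2 and Cspg5 (percent, mean of 3 replicates), with a bar per cell type. Only transcripts holding at least 10% in some cell type are drawn singly, and the rest are pooled. The coding transcript Bcan-201 makes 89.1% in astrocytes against 36.4% in interneurons, and Hapln2's coding transcript makes 40.1% in interneurons against 1.11% in microglia.

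Each lectican gene lies next to a link protein gene, with no coding gene between them (GRCm38, GENCODE M21). Ncan (chr8, 70093085 to 70120873, minus) and Hapln4 (chr8, 70083457 to 70090862, plus) are 2222 bases apart, and their levels over the 18 libraries had a Pearson r of -0.185. Vcan (chr13, 89655312 to 89742509, minus) and Hapln1 (chr13, 89539796 to 89611652, plus) lie 43659 bases apart and had r = 0.827. Bcan (chr3, 87987531 to 88000230, minus) and Hapln2 (chr3, 88021750 to 88027583, minus) lie 21519 bases apart with r = 0.52, and Acan (chr7, 79053483 to 79115099, plus) and Hapln3 lie 2 bases apart with r = 0.269. These libraries fall into 6 cell types of 3, so each r describes mostly the 6 levels. The other members lie alone, Tnr on chr1 (159523769 to 159931729, plus), Tnc on chr4 (63959785 to 64047015, minus) and Cspg5 on chr9 (110243783 to 110262576, plus).

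Among the members, Bcan and Tnc were the most alike over the 18 libraries (r = 0.942 on log2(TPM + 1)), followed by Bcan and Vcan (0.905) and Ncan and Cspg5 (0.876). Of 15744 genes with a mean of at least 1 TPM, those most like Acan were Mme (0.982), Adarb2 (0.980) and Gad1 (0.978), the last an enzyme of GABA synthesis. Hapln1 was nearest to Sox1 (0.997), Spsb4 (0.994) and Rarres1 (0.991), and Bcan to Plaat3 (0.984), Htra1 (0.984) and St3gal4 (0.982). Tnc was nearest to Rftn2 (0.991), Garem2 (0.990) and Tril (0.989). Ncan was nearest to Nim1k (0.986), Nme7 and Mt3, Cspg5 to Mvk (0.987) and Fdft1, and Vcan to Plekhg1 (0.940), Fgfr2 and Dbt. Hapln4 was nearest to Dpp10 (0.990), Gm20712 and Asic1, Tnr to Arel1 (0.987), Tpst1 and Plxna2, and Hapln2 to Plxnb3 (0.966), Sec14l5 and Gm19439.

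Genes that build, cut or bind this matrix were described by lists, to be read against the 26.3% higher and 21.3% lower of all genes between astrocytes and Layer V neurons, and the 15.1% and 13.1% between interneurons and dentate granule cells. Of 20 tested genes for chondroitin sulfate synthesis (21 listed), 7 were higher and 3 lower in astrocytes than in Layer V neurons, with a median of -0.143 against 0.022 over all genes. The sulfotransferase genes Chst14, Chst3 and Chst7 led, with Chst14 at 3.27 ± 0.15 against 0.160 ± 0.082 TPM, a log2 fold change of 4.38 (SE 0.25, adjusted p = 1.8e-11). Between interneurons and dentate granule cells 2 were higher and 4 lower. Csgalnact1, which starts the chondroitin chain, was lower in interneurons at 2.68 ± 0.38 against 8.98 ± 0.84 TPM (log2 -1.90, SE 0.11, adjusted p = 8.2e-11), and Chst3 was higher by 2.56 (SE 0.22, adjusted p = 9.8e-09).

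Of 10 genes for hyaluronan synthesis, turnover and binding, 4 were higher and 1 lower in astrocytes than in Layer V neurons, with a median of 0.492. Hyal1, a hyaluronidase, was at 21.5 ± 1.72 against 0.432 ± 0.009 TPM (log2 6.00, SE 0.26, adjusted p = 3.5e-13). Stab1, a hyaluronan scavenger receptor of macrophages and endothelium, was at 2.74 ± 0.49 against 0.437 ± 0.137. Microglial markers (4 genes) summed to 66.9 to 81.1 TPM in those astrocytes against 15.8 to 17.2 in Layer V neurons, and endothelial ones to 39.7 to 55.1 against 10.6 to 12.6, and their part in Stab1 was not tested. Has2, a hyaluronan synthase, stayed near 0 in both, at 0.079 ± 0.004 and 0.012 ± 0.014 TPM. Between interneurons and dentate granule cells 2 were higher and 3 lower, among them Cemip2, a cell-surface protein linked to hyaluronan breakdown, at 3.04 ± 0.08 against 7.08 ± 0.23 TPM (log2 -1.31, SE 0.11, adjusted p = 9.7e-09).

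Matrix proteases cut lecticans, and tissue inhibitors hold them in check. In astrocytes against Layer V neurons 9 of 15 were higher and 4 lower, the latter near the 21.3% of all genes, with a median of 2.06. They were led by Mmp14, a membrane metalloproteinase, at 78.4 ± 12.2 against 0.46 ± 0.147 TPM (log2 7.71, SE 0.19, adjusted p = 1.6e-16). The inhibitor Timp4 stood at 132 ± 14.95 against 0.556 ± 0.189 TPM and Timp3 at 234 ± 11.1 against 2.90 ± 0.30. In interneurons against dentate granule cells 8 were higher and 2 lower, with Timp3 higher by 3.31 (SE 0.15, adjusted p = 2.2e-12) and Adamts8, a protease of the aggrecanase family, by 3.06 (SE 0.15, adjusted p = 4.6e-12).

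Of 12 receptors for proteoglycans and tenascins, 4 were higher and 4 lower in astrocytes than in Layer V neurons, not far from the shares over all genes. Ptprz1, a receptor phosphatase that is itself a chondroitin sulfate proteoglycan, was at 187 ± 10.3 against 2.48 ± 0.17 TPM (log2 6.56, SE 0.13, adjusted p = 1.6e-17) and Egfr at 19.9 ± 1.80 against 0.144 ± 0.022. The Nogo receptor family member Rtn4rl2 was lower, at 14.9 ± 3.29 against 118 ± 9.25. Between interneurons and dentate granule cells 4 were higher and 4 lower. Rtn4r, at 9.16 ± 0.16 against 140.3 ± 5.24 TPM, and Rtn4rl2, at 4.76 ± 0.67 against 125 ± 13.3, were lower.

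The last list held 14 other matrix genes, mostly proteoglycans, with Hapln3 and the net-binding Sema3a and Nptx2 among them. In astrocytes 7 were higher and 7 lower than in Layer V neurons, led by Prelp at 51.5 ± 2.32 against 0.338 ± 0.024 TPM (log2 7.23, SE 0.20, adjusted p = 7.8e-16). Hapln3, the remaining link protein, was at 3.56 ± 0.49 against 0.167 ± 0.087 TPM, and biglycan (Bgn) at 12.9 ± 1.45 against 0.491 ± 0.079. In interneurons against dentate granule cells 6 were higher and 4 lower. Decorin (Dcn), a small proteoglycan of collagen matrix, was at 1.61 ± 0.37 against 126 ± 33.1 TPM (log2 -6.36, SE 0.29, adjusted p = 2.2e-12), and lumican (Lum) at 0.197 ± 0.104 against 5.15 ± 0.47. The 4 endothelial markers summed to 9.77 to 18.3 TPM in interneurons and 15.2 to 33.1 in dentate granule cells. The part of vascular or other cells in the Dcn and Lum values was not tested.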

How the data were processed

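RiboTag mRNA was measured in 22 libraries, from 18 replicates of 6 cell types (3 each, all mice 6 weeks old), 4 of which were sequenced in both batches. Per the labels and methods, the authors removed adapters (cutadapt 3.5) and estimated transcript abundance with kallisto 0.46.2 on GENCODE M24 transcripts (GRCm38). The authors deposited estimated counts, not normalized, and TPM (counts scaled by transcript length and library size) for each transcript. Both were summed here over the transcripts of each gene identifier. Each member's symbol matched a single identifier, and for a listed symbol with several the one with the most counts was to be used. The first-batch library stood for each replicate that had both, and groups came from the sample labels. A replicate's own pair of libraries differed by a chi-square per gene of 1.74 to 3.34, against 8.89 to 42.45 between replicates, so pairs were counted once. The exception was the alternative with batch as a term, which took all 22 libraries and counted the libraries of a pair as separate.

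Summed counts were rounded and tested in R 4.3.3 with edgeR 4.0.16 (quasi-likelihood, TMM factors, filterByExpr by cell type) in 1 fit of all 6 cell types. P-values were adjusted by Benjamini-Hochberg over all 20524 genes tested, and SE is the log2 fold change over the square root of F. The authors' own test needs kallisto's resampled estimates and was not run. DESeq2 1.42.0 and limma 3.58.1 served alternatives. The fit was also run on simulated counts, with a single spread for all genes and changes planted in astrocytes alone. That setting is simpler than these data, and its planted changes left out genes with few counts. Named genes were the 10 members, up to 3 called genes of each pathway list with the largest change between astrocytes and Layer V neurons and up to 2 between interneurons and dentate granule cells, the 3 genes most like each member (1 of which is not reported here), and the markers. The symbol rule uses no value, but the members and lists were chosen with earlier results of these data known. Replicate errors do not cover the uncertainty of dividing reads among transcripts.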

Additional observations from a re-analysis of the deposited data

How the results depend on the processing

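DESeq2, RLE factors, no filter on low counts, the filter of 5 counts in 47% of libraries and the second-batch library of the 4 replicates sequenced in both batches changed none of the 70 member calls. Blocking on the replicate number changed none either, with a largest shift of 0.058 in log2 fold change. The numbers do not pair the libraries, since same-numbered replicates correlated at -0.1 to 0.109 and differently numbered ones at -0.116 to 0.132.

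The count of genes lower in astrocytes than in Layer V neurons, 1 in the test reported, was 2 with no minimum fold and 2 over protein-coding transcripts, and 1 to 2 with a replicate left out. The count lower in astrocytes than in microglia went from 1 to 0 over protein-coding transcripts. With no minimum fold, interneurons were lower than dentate granule cells for 2 genes in place of 1, and lower than excitatory neurons for 1 in place of 0. Layer V neurons were lower than dentate granule cells for 2 genes in place of 4 by limma on log2(TPM + 1), and for 2 to 5 with a replicate left out. By the same limma fit, dentate granule cells were higher than cerebellar ones for 4 genes in place of 7. limma on log2(TPM + 1) lost 12 member calls and added 2. The cause was not tested. Transcript shares taken over estimated counts in place of TPM moved by more than their SD in 90 cases and not in 38.

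Signs that turned belonged to values near 0 or to Hapln2. Acan between astrocytes and microglia was -0.167 in batch 2 alone. Acan between astrocytes and neurons was -0.0502 with batch as a term, -0.418 in batch 2 alone, -0.3602 and -0.4187 by limma on log2(TPM + 1) and log2(TPM + 0.1). It ran from -0.0149 to 0.1617 with a replicate left out, below 0 without cerebellar replicate 1 (-0.0042) or astrocyte replicate 3. Hapln1 between Layer V and dentate granule cells was -0.2939 and -0.565 by those limma fits. With a replicate left out, Tnc ran from -0.158 (without dentate replicate 2) to 0.5984 between Layer V and dentate granule cells, and from -0.102 (without dentate replicate 1) to 0.6537 between dentate and cerebellar granule cells. Over protein-coding transcripts, Hapln2 was 1.9892 between astrocytes and microglia and 1.1263 between Layer V and dentate granule cells. At 1 to 2 counts a library for Acan and 2 to 12 for Hapln1, both genes in cerebellar granule cells are limited by depth.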
